A study of Mus musculus with 16 samples.

Results

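The 9 genes described here, Nqo1, Hmox1, Gclc, Gclm, Gpx2, Srxn1, Txnrd1, Slc7a11 and Gsr, are textbook targets of the transcription factor NRF2 and belong to the antioxidant defence of the cell. They were taken by symbol from a table of 30095 genes, all 9 were found there, and all 9 passed the filter on low values that left 17546 genes for testing. The table holds bulk RNA sequencing of whole lungs from C57BL/6 mice carrying tumours of HKP1, a mouse lung adenocarcinoma line, in 16 libraries of 6 groups. Lungs received 0, 4 or 8 Gy of radiation in combination with IgG, the control antibody, or with anti-PD-1, which blocks an inhibitory receptor of T cells. Tissue was collected 24 to 48 hours after the radiation. With IgG there were 3 libraries at 0 Gy, 2 at 4 Gy and 3 at 8 Gy, and with anti-PD-1 there were 2, 3 and 3. Each library is a pool of 3 to 4 mice. All groups carry the tumour, so no group shows a healthy lung. A lung ground whole mixes tumour with airway, alveolar, vascular, immune and blood cells, and in such data fewer cells of a type and less RNA per cell cannot be told apart.

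NRF2, encoded by Nfe2l2, is held in the cytoplasm by KEAP1, which hands it to the CUL3 ubiquitin ligase for destruction. When oxidants or electrophiles modify KEAP1, NRF2 escapes, pairs with a small MAF protein and binds antioxidant response elements in the DNA near its targets, some of which, Hmox1 among them, are also held down by the repressor BACH1. In lung this programme is known for protecting airway and alveolar epithelium against inhaled oxidants, and it is often switched on in lung adenocarcinoma. The 9 genes cover its main branches. Slc7a11, Gclc and Gclm feed glutathione synthesis, Gsr and Gpx2 recycle and use glutathione, Txnrd1 and Srxn1 keep thioredoxin and peroxiredoxins reduced, Nqo1 detoxifies quinones, and Hmox1 degrades haem.

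The sequences just upstream of 4 of the genes are shown because their transcripts behaved differently. Slc7a11 and Gclm were low after 4 Gy with anti-PD-1, Gpx2 was high in the same libraries, and Srxn1 hardly varied. Each run is the 250 bases upstream of a RefSeq transcription start (GRCm38.p6), written 5′ to 3′ along the strand of the gene. Capitals mark matches, on either strand, to TGACNNNGC or its G form TGAGNNNGC (the core of the antioxidant response element), to TGATGCAA (an amino acid response element) or to TGAGTCA (an AP-1 site, which can lie inside a G-form match). The regions are chr3:50443614-50443863 on the minus strand for Slc7a11, chr3:122245307-122245556 on the plus strand for Gclm, chr2:152105274-152105523 on the plus strand for Srxn1 and chr12:76795555-76795804 on the minus strand for Gpx2.
Slc7a11: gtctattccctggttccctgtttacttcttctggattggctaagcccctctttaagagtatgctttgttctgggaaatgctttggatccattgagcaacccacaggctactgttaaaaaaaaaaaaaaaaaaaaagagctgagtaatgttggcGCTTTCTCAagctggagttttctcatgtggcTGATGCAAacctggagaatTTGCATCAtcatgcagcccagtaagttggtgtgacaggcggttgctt
Gclm: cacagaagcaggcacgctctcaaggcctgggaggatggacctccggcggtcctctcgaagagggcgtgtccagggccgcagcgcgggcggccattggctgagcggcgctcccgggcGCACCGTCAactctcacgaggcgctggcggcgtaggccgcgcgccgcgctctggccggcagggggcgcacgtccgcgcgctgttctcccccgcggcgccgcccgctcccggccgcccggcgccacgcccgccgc
Srxn1: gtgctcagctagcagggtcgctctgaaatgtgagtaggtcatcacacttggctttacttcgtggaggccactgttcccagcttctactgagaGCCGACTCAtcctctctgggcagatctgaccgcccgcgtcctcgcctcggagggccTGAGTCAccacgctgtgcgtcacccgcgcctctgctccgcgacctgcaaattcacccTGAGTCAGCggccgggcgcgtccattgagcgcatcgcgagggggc
Gpx2: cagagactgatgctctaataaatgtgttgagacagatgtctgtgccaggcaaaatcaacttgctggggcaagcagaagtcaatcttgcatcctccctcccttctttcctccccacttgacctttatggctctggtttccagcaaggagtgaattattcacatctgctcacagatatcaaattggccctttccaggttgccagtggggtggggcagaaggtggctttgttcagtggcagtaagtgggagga

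The Slc7a11 run held a G-form match 97 bases upstream and a pair of TGATGCAA matches, 66 and 47 bases upstream, on opposite strands. The Gclm run held a TGACNNNGC match 134 bases upstream. The Srxn1 run held G-form matches 158 and 45 bases upstream and AP-1 matches 102 and 45 bases upstream, the last inside the G-form match. The Gpx2 run held no match to these letters. Of 32851 promoters of the same length, 10.2% held TGACNNNGC, 14.4% held TGAGNNNGC, 0.791% held TGATGCAA and 4.46% held TGAGTCA, so a core match is common by itself. A match is a description and not a binding site. Promoters were matched for 6 of the 9 genes. Of the 2 others that were matched, Nqo1 held no match, and 1 of 3 Txnrd1 promoters held a TGACNNNGC match 92 bases upstream. Hmox1, Gclc and Gsr are named only.

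Several properties of the libraries bear on every result. In these 16 libraries 1 read was worth 0.0155 to 0.0418 CPM, the depth-scaled count in which the table is given, so a floor of 3 reads lay at or below 0.125 CPM and every value of the 9 genes lay above it. Anti-PD-1 4 Gy replicates 2 and 3 stood apart from the rest. They lay at -81.5 and -98.3 on the first principal component, where the other 14 libraries lay between -46.8 and 51.9, and no reads were found for 6086 and 5315 genes, where the other libraries lacked reads for 2273 to 3851. The results of the 9 genes that rest on the 4 Gy dose, and most list counts, are therefore also given without these 2 libraries. That leaves 1 library in the anti-PD-1 4 Gy group, and the share of all genes that passed in those fits is not given. A call lost there is thus not read as particular to the listed genes. The share of CPM from mitochondrial genes was 1.01 to 3.73% at 0 Gy, 4.14 to 6.54% at 4 Gy and 1.69 to 8.23% at 8 Gy, and the lowest 4 Gy library exceeded the highest 0 Gy library. Its part in the results at 4 Gy was not tested. The labels carry running sheet numbers, 13 to 17 for the 0 Gy libraries and 26 to 36 for the irradiated ones. If the numbers stand for rounds of preparation, the round cannot be told apart from irradiation. The labels do not say that pools of a group came from separate experiments, so the spread behind each p-value is that of these pools and may be technical. Of 12 cell type marker lists, all 7 club cell, 7 alveolar type 2, 6 alveolar type 1 and 6 ciliated cell markers had reads in every library, and so did the markers of the other lists that passed the filter.

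**Figure D1:**
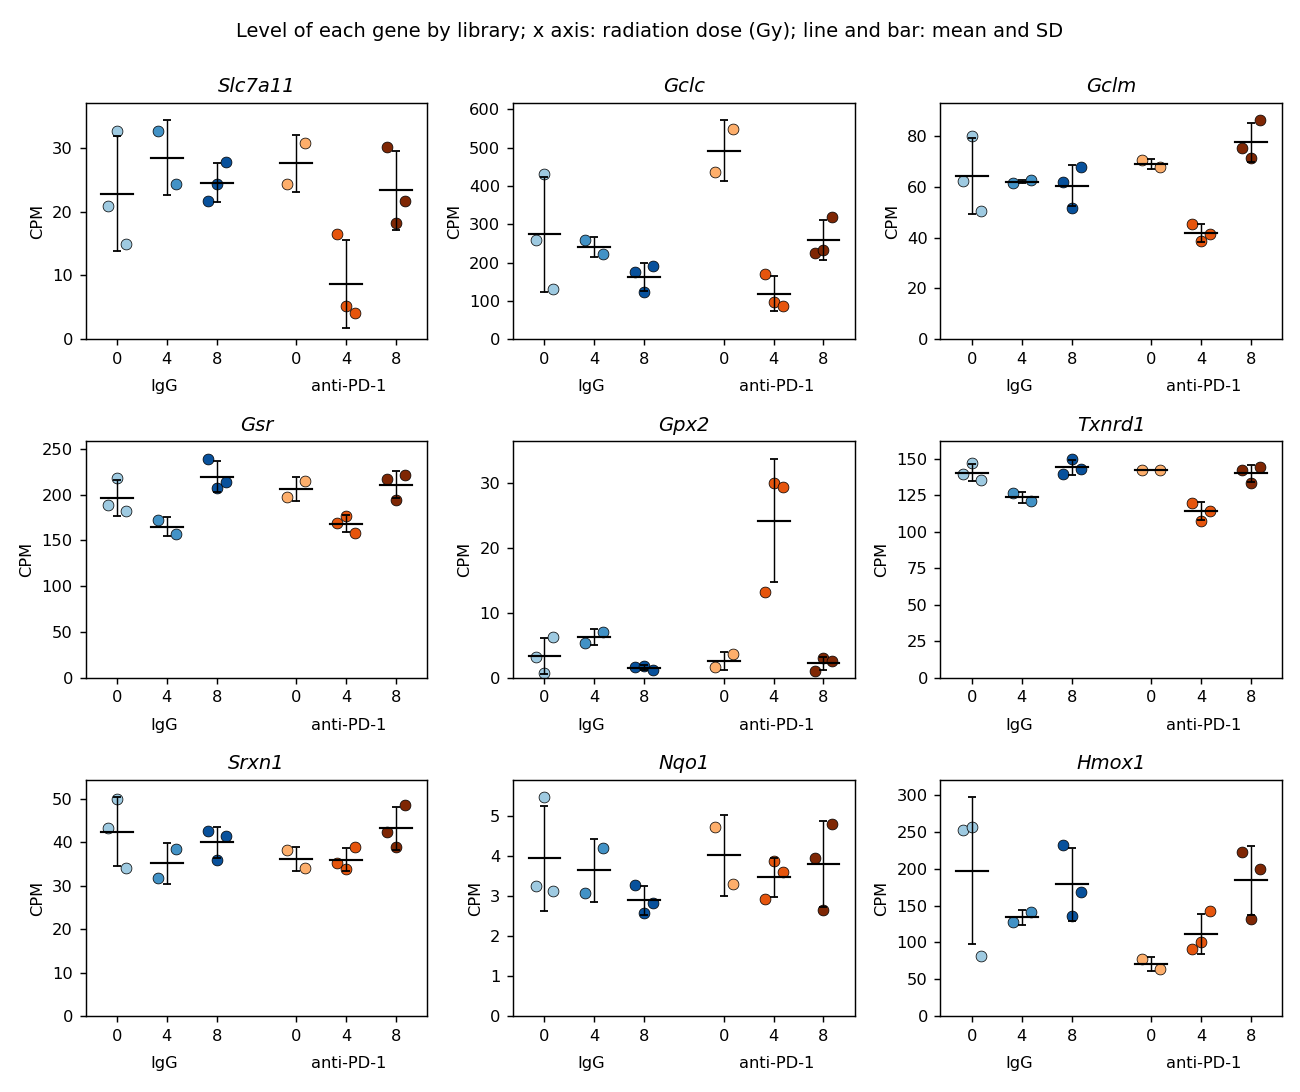
Level of each of the 9 genes in CPM (y axis, from 0) by radiation dose in Gy (x axis), with the IgG groups in blue and the anti-PD-1 groups in orange; each point is a library and the line and bar are the group mean and SD. Gpx2 reached 13.2 to 29.97 CPM in the anti-PD-1 4 Gy libraries and stayed at or below 7.05 CPM in the others, while Slc7a11, Gclc and Gclm had their lowest group means there.

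Slc7a11 encodes xCT, the cystine importer whose cargo limits glutathione synthesis (mm10, chromosome 3, 49892526 to 50443614, minus strand). With IgG it stood at 20.9, 32.7 and 14.9 CPM at 0 Gy, at 32.6 and 24.4 CPM at 4 Gy and at 21.6, 24.3 and 27.8 CPM at 8 Gy. With anti-PD-1 it stood at 24.4 and 30.7 CPM at 0 Gy, at 16.6, 5.27 and 4.15 CPM at 4 Gy and at 30.1, 18.2 and 21.7 CPM at 8 Gy. The 3 IgG groups overlapped one another, and the lowest values of all were those of the 2 libraries that stood apart. Within anti-PD-1 every 4 Gy library lay below every 0 Gy and 8 Gy library. In order of group means, IgG 4 Gy came first and anti-PD-1 4 Gy last, and every neighbouring pair in that order overlapped.

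Gclc encodes the catalytic subunit of glutamate-cysteine ligase, the enzyme that takes the rate-limiting step of glutathione synthesis (chromosome 9, 77754535 to 77794485, plus strand). With IgG it stood at 259, 431 and 131 CPM at 0 Gy, at 258 and 223 CPM at 4 Gy and at 174, 122 and 190 CPM at 8 Gy. The anti-PD-1 libraries had 436 and 548 CPM at 0 Gy, at 171, 96.7 and 87.1 CPM at 4 Gy and at 224, 233 and 319 CPM at 8 Gy. Both unirradiated anti-PD-1 libraries lay above all other libraries, and the unirradiated IgG libraries spread over most of the range of the irradiated ones.

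Gclm encodes the modifier subunit of the same ligase, which raises the efficiency of the catalytic subunit (chromosome 3, 122245557 to 122270732, plus strand). It stood at 62.2, 80.2 and 50.6 CPM at 0 Gy, then 61.6 and 62.5 CPM at 4 Gy and 61.8, 51.7 and 68.0 CPM at 8 Gy with IgG. The anti-PD-1 libraries had 70.5 and 67.7 CPM at 0 Gy, then 45.5, 38.7 and 41.4 CPM at 4 Gy and 75.4, 71.3 and 86.2 CPM at 8 Gy. The anti-PD-1 4 Gy libraries were the lowest of all 16, the first of them included. Per kilobase of exon, the Gclc level was 3.51 to 13.5 times the Gclm level in the same library. The 2 highest ratios, 10.3 and 13.5, were those of the unirradiated anti-PD-1 libraries, and the lowest was that of anti-PD-1 4 Gy replicate 3. The reference annotation places 2 other genes in the span of Gclm, 5 in that of Slc7a11, 3 in that of Txnrd1 and 1 in that of Gsr. Eid3, in the span of Txnrd1, is protein-coding and on the same strand. Without knowledge of strand and counting, reads of such overlaps cannot be told apart.

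Gsr encodes glutathione reductase, which regenerates reduced glutathione with NADPH (chromosome 8, 33652523 to 33698163, plus strand). Its level was 188, 219 and 182 CPM at 0 Gy, then 173 and 157 CPM at 4 Gy and 239, 207 and 213 CPM at 8 Gy with IgG. Under anti-PD-1 it was at 197 and 215 CPM at 0 Gy, then 169, 177 and 158 CPM at 4 Gy and 217, 194 and 221 CPM at 8 Gy. All 5 of the 4 Gy libraries lay below all the others, in both antibody arms, and the 0 and 8 Gy libraries overlapped. Its total range was 1.52-fold.

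Gpx2 encodes a glutathione peroxidase of epithelia, best known from the gut and the airways (chromosome 12, 76792333 to 76795554, minus strand). With IgG it stood at 3.13, 0.690 and 6.26 CPM at 0 Gy, then 5.31 and 7.05 CPM at 4 Gy and 1.68, 1.81 and 1.17 CPM at 8 Gy. The anti-PD-1 values were 1.64 and 3.57 CPM at 0 Gy, then 13.2, 29.97 and 29.3 CPM at 4 Gy and 1.07, 3.01 and 2.59 CPM at 8 Gy. The range over the 16 libraries was 43.5-fold, and the SD of its log2 level was at the 99.4th percentile of the genes tested. Its group means ran from anti-PD-1 4 Gy down to IgG 8 Gy, and the first group alone did not overlap its neighbour. The gene lies inside Fntb, which is read from the other strand and encodes a farnesyltransferase subunit. Fntb stood at 11.1 to 17.98 CPM in all libraries, a much smaller range than that of Gpx2. Its highest values, 17.98 and 15.9 CPM, were those of anti-PD-1 4 Gy replicates 2 and 3, where Gpx2 was also highest. The other libraries had at most 15.1 CPM of Fntb, and without knowledge of strand reads of the shared stretch cannot be told apart.

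Txnrd1 encodes cytosolic thioredoxin reductase (chromosome 10, 82833951 to 82897712, plus strand). It stood at 139, 147 and 135 CPM at 0 Gy, then 126 and 121 CPM at 4 Gy and 140, 150 and 143 CPM at 8 Gy with IgG. With anti-PD-1 it stood at 142 and 142 CPM at 0 Gy, then 120, 108 and 114 CPM at 4 Gy and 142, 133 and 144 CPM at 8 Gy. Its range was 1.39-fold, the SD of its log2 level within groups exceeded that of 0.0741% of the genes tested, and every 4 Gy library still lay below every 0 Gy and 8 Gy library. Srxn1, sulfiredoxin, repairs over-oxidised peroxiredoxins (chromosome 2, 152105516 to 152111376, plus strand). It ranged from 31.9 to 49.9 CPM, and no 2 neighbours in the order of its group means were separate.

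Nqo1, a quinone reductase often used as the readout of NRF2 activity (chromosome 8, 107388225 to 107403206, minus strand), was low in these lungs, at 2.58 to 5.47 CPM. Neighbours in the order of its group means overlapped, while the IgG 8 Gy libraries (2.58 to 3.28 CPM) lay just below the unirradiated anti-PD-1 libraries (3.30 and 4.74 CPM). Hmox1 encodes haem oxygenase 1, which is strongly made by macrophages that take up red cells (chromosome 8, 75093621 to 75100589, plus strand). With IgG it stood at 252, 257 and 82.0 CPM at 0 Gy, then 127 and 141 CPM at 4 Gy and 232, 136 and 168 CPM at 8 Gy. With anti-PD-1 it stood at 77.1 and 63.7 CPM at 0 Gy, then 90.8, 101 and 143 CPM at 4 Gy and 222, 132 and 199 CPM at 8 Gy. The 2 unirradiated anti-PD-1 libraries were the lowest of all, and with IgG the third 0 Gy library was far below the other two. Per kilobase of exon, averaged over all libraries, Hmox1 was the most abundant of the 9 at 86.5 CPM per kb, followed by Gsr at 71.0 and Gclc at 64.8. Txnrd1 at 18.9, Srxn1 at 13.9 and Gclm at 9.89 CPM per kb came next, and Nqo1 at 2.32, Gpx2 at 2.16 and Slc7a11 at 1.57 CPM per kb were lowest.

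The comparison of 4 Gy with 0 Gy over both antibodies (n = 5 and 5) asks what the lower dose did. Gpx2 rose and Gclc and Txnrd1 fell, 3 of 9, where 17.5% of all genes tested passed, 5.33% higher and 12.2% lower. Changes are log2 fold changes ± SE on the log2(CPM + 0.5) scale from limma, with p-values adjusted over all genes tested and a threshold of 0.05. Gpx2 changed by 2.04 ± 0.42 (adjusted p = 0.0134), Gclc by -1.07 ± 0.28 (adjusted p = 0.0258) and Txnrd1 by -0.25 ± 0.07 (adjusted p = 0.0347). Gsr, at -0.27 ± 0.09 (adjusted p = 0.0501), and Gclm, at -0.37 ± 0.12 (adjusted p = 0.0512), narrowly did not pass, and Slc7a11 stood at -0.74 ± 0.31 (adjusted p = 0.10). The median over the 9 genes was -0.25, beside -0.14 over all genes tested. None of the 9 passed without the 2 libraries that stood apart. There Gpx2 stood at 1.66 ± 0.50 (adjusted p = 0.125), Gclc at -0.77 ± 0.32 (adjusted p = 0.225) and Txnrd1 at -0.22 ± 0.09 (adjusted p = 0.211). Slc7a11 stood at -0.17 ± 0.25 (adjusted p = 0.736). Leaving out IgG 4 Gy replicate 2 alone also ended the call of Gpx2. That of Gclc also ended when either IgG 4 Gy library, either anti-PD-1 0 Gy library, or anti-PD-1 4 Gy replicate 2 or 3 was left out singly, and that of Txnrd1 with each of these and with IgG 0 Gy replicate 1 or 2.

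At 8 Gy against 0 Gy over both antibodies (n = 6 and 5) none of the 9 passed, where 20.7% of all genes tested did (4.68% higher and 16.1% lower), and 2 had an unadjusted p under 0.05. These were Gclc, at -0.78 ± 0.26 (limma, adjusted p = 0.0505), and Hmox1, at 0.68 ± 0.27 (adjusted p = 0.0931). Without the 2 libraries that stood apart, which hold no sample of this comparison but enter the shared estimate of the spread, Gclc passed at an adjusted p of 0.0496. The other 7 genes lay between -0.40 (Gpx2, ± 0.40) and 0.10 (Gsr, ± 0.08). The median over the 9 genes was 0.01, beside -0.09 over all genes tested.

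Between 8 and 4 Gy over both antibodies (n = 6 and 5), Gclm, Gsr and Txnrd1 were higher and Gpx2 was lower at 8 Gy, 4 of 9, where 34.3% of all genes tested passed, 17% higher and 17.2% lower. Gpx2 changed by -2.44 ± 0.40 (limma, adjusted p = 0.00096) and no 8 Gy library reached the level of a 4 Gy library. Gsr changed by 0.37 ± 0.08 (adjusted p = 0.00586) and Txnrd1 by 0.26 ± 0.07 (adjusted p = 0.0129), and for both the lowest 8 Gy library exceeded the highest 4 Gy library. Gclm changed by 0.42 ± 0.12 (adjusted p = 0.0155), with libraries that overlapped. Without the 2 libraries that stood apart, Gpx2, at -2.06 ± 0.48 (adjusted p = 0.0199), and Gsr, at 0.36 ± 0.10 (adjusted p = 0.0404), still passed. Gclm, at 0.36 ± 0.15 (adjusted p = 0.128), and Txnrd1, at 0.22 ± 0.08 (adjusted p = 0.0993), did not. Leaving out IgG 4 Gy replicate 1 alone ended the call of Gclm, and leaving out IgG 4 Gy replicate 2 alone that of Txnrd1. This comparison and the preceding pair share samples, so their values are given side by side and not as separate support.

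**Figure D2:**
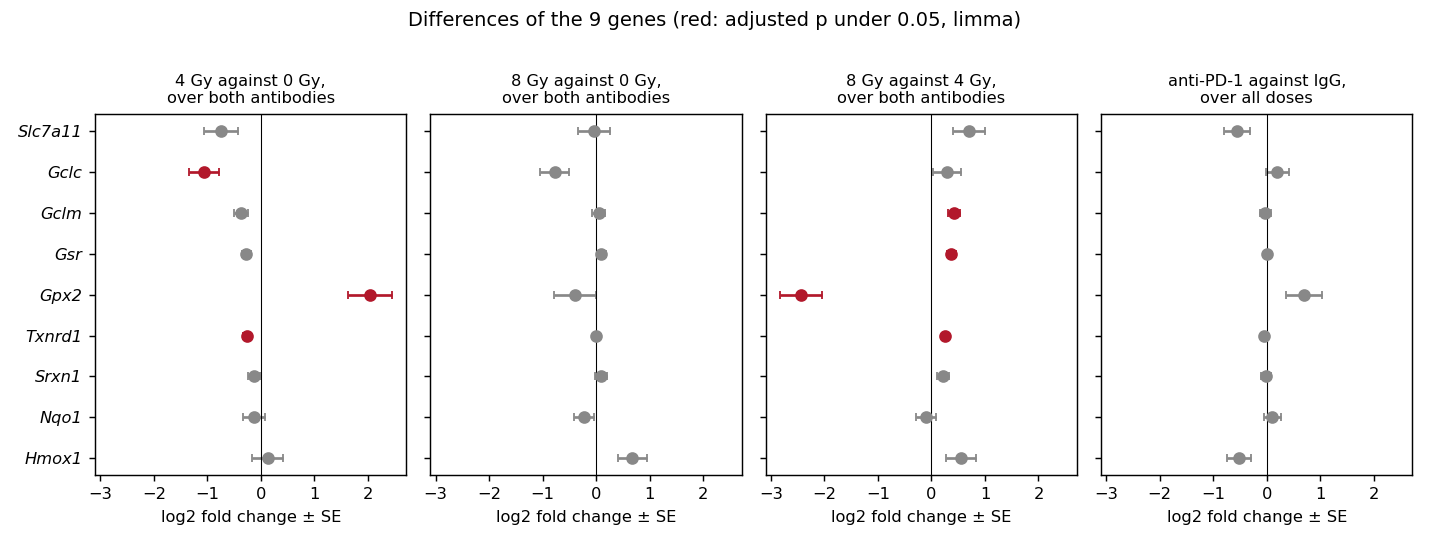
Log2 fold change ± SE (x axis, limma) of the 9 genes (y axis) for the 3 dose comparisons over both antibodies and for anti-PD-1 against IgG over all doses; red points have an adjusted p under 0.05 over all genes tested. Gpx2 has the largest difference in either direction, 2.04 at 4 Gy against 0 Gy and -2.44 at 8 Gy against 4 Gy, and no gene is red at 8 Gy against 0 Gy or for the antibody.

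Anti-PD-1 was compared with IgG over all doses (n = 8 and 8), which averages the antibody difference at 0, 4 and 8 Gy. None of the 9 passed, where 0.234% of all genes tested did (0.165% higher and 0.0684% lower), and 2 had an unadjusted p under 0.05, Hmox1 at -0.52 ± 0.23 (limma, adjusted p = 0.232) and Slc7a11 at -0.55 ± 0.25 (adjusted p = 0.239). Leaving out the 2 libraries that stood apart, Slc7a11 stood at -0.17 ± 0.19 (adjusted p = 0.80) and Hmox1 at -0.61 ± 0.27 (adjusted p = 0.41). At 0 Gy none passed (0.274% of all genes tested, 0.12% higher and 0.154% lower), with 2 at an unadjusted p under 0.05. Gclc stood at 1.00 ± 0.39 (adjusted p = 0.382) with both anti-PD-1 libraries above the 3 IgG libraries, and Hmox1 at -1.31 ± 0.41 (adjusted p = 0.22) with both below them. At 8 Gy none passed either (0.0057% of all genes tested, all higher), with 1 at an unadjusted p under 0.05, Gclm at 0.36 ± 0.16 (adjusted p = 0.371). At 4 Gy Slc7a11, at -1.90 ± 0.44 (adjusted p = 0.0319), and Gclm, at -0.57 ± 0.17 (adjusted p = 0.045), were lower with anti-PD-1, 2 of 9 where 15.5% of all genes tested passed, 6.9% higher and 8.57% lower. Without the 2 libraries that stood apart none passed at 4 Gy, with Slc7a11 at -0.75 ± 0.40 and Gclm at -0.44 ± 0.24 (adjusted p = 0.647 for both). With either of these libraries or either IgG 4 Gy library left out, Slc7a11 no longer passed, and Gclm passed in 7 of 24 alternatives.

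Each antibody arm was also examined by itself. With anti-PD-1, 4 Gy against 0 Gy (n = 3 and 2) gave 5 of 9, where 39.3% of all genes tested passed, 13.4% higher and 25.9% lower. Gpx2 rose by 2.98 ± 0.59 (limma, adjusted p = 0.00466), and Gclc at -2.11 ± 0.39 (adjusted p = 0.00412), Slc7a11 at -1.85 ± 0.44 (adjusted p = 0.00778), Gclm at -0.72 ± 0.17 (adjusted p = 0.0083) and Txnrd1 at -0.32 ± 0.10 (adjusted p = 0.0272) fell. For each of these 5 genes the 4 Gy libraries lay on one side of the 0 Gy libraries. In the same comparison 4 of 5 neutrophil markers tested fell, among them Mmp8 by 3.42 and S100a8 by 3.00 on the log2 scale, and 1, Csf3r, rose. Neutrophil markers summed to 207 and 534 CPM in the unirradiated anti-PD-1 libraries, 128 to 186 CPM in anti-PD-1 4 Gy and 113 to 173 CPM in the IgG libraries at 0 and 4 Gy, and their part in the change of the 9 genes was not tested. With IgG (n = 2 and 3) none of the 9 passed, where 0.0057% of all genes tested did (all higher), and none had an unadjusted p under 0.05. Gclc stood at -0.03 ± 0.39, Slc7a11 at 0.37 ± 0.44, Gclm at -0.03 ± 0.17 and Gpx2 at 1.10 ± 0.59. The difference between the arms was tested as such and passed for Gclc, at -2.08 ± 0.56 (adjusted p = 0.0436), and Slc7a11, at -2.22 ± 0.63 (adjusted p = 0.046), 2 of 9 where 9.08% of all genes tested passed, 3.76% higher and 5.32% lower.

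The anti-PD-1 4 Gy group behind these calls includes the 2 libraries that stood apart. Leaving them out also lowers the power, so a lost call does not by itself show that it rests on them. Without them the anti-PD-1 4 Gy group is 1 library, assumed to vary like the other groups, and none of the 9 passed at 4 Gy against 0 Gy. Gclc then stood at -1.51 ± 0.51, Slc7a11 at -0.71 ± 0.40, Gclm at -0.60 ± 0.24 and Gpx2 at 2.22 ± 0.80, each with the sign it had before. The difference between arms passed for none of the 9 without them, and the calls of Gclc and Slc7a11 were also lost in 17 and 18 of 24 alternatives in all, most of them the omission of a single library. Leaving out anti-PD-1 0 Gy replicate 2 ended the calls of Gclm and Slc7a11 at 4 Gy against 0 Gy with anti-PD-1, and that of Txnrd1 ended without either anti-PD-1 0 Gy library and without anti-PD-1 4 Gy replicate 2 or 3.

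At 8 Gy against 4 Gy with anti-PD-1 (n = 3 and 3), 6 of 9 passed, where 41.8% of all genes tested did, 24.4% higher and 17.5% lower. Gclc (1.17 ± 0.35), Slc7a11 (1.60 ± 0.40), Gclm (0.88 ± 0.16), Gsr (0.32 ± 0.11) and Txnrd1 (0.30 ± 0.09) were higher and Gpx2 (-3.17 ± 0.53) was lower at 8 Gy. Without the 2 libraries that stood apart, which leaves 1 library at 4 Gy, none passed. Gpx2 (-2.42 ± 0.75), Gclm (0.76 ± 0.23) and Gsr (0.31 ± 0.16) then stood near their earlier values, while Slc7a11 (0.45 ± 0.37) and Gclc (0.58 ± 0.48) stood at less of theirs. With IgG (n = 3 and 2) none passed, where 7.58% of all genes tested did (1.64% higher and 5.94% lower), and 2 had an unadjusted p under 0.05, Gsr at 0.41 ± 0.13 (limma, adjusted p = 0.0604) and Gpx2 at -1.70 ± 0.59 (adjusted p = 0.0916). At 8 Gy against 0 Gy none passed with IgG (10.6% of all genes tested, 1.44% higher and 9.12% lower, none of the 9 at an unadjusted p under 0.05) or with anti-PD-1 (2.83%, 0.957% higher and 1.88% lower, 2 of the 9 at an unadjusted p under 0.05). In the anti-PD-1 arm Hmox1 stood at 1.35 ± 0.41 (adjusted p = 0.0893), with all 8 Gy libraries above both 0 Gy libraries, and Gclc at -0.94 ± 0.39 (adjusted p = 0.22), with all of them below. For 8 Gy against 0 Gy and for 8 Gy against 4 Gy the difference between arms passed for none of the 9 and for 0% of all genes tested, with 1 and 3 of the 9 at an unadjusted p under 0.05.

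**Figure D3:**
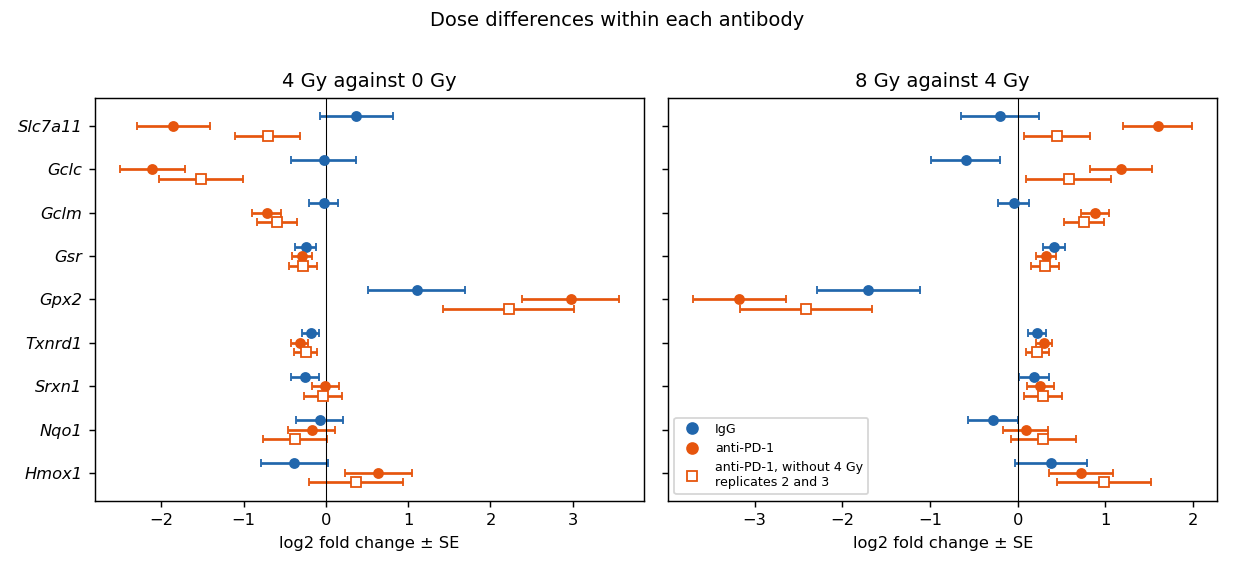
Log2 fold change ± SE (x axis, limma) of the 9 genes (y axis) at 4 Gy against 0 Gy and 8 Gy against 4 Gy, with IgG in blue, with anti-PD-1 in filled orange, and with anti-PD-1 without 4 Gy replicates 2 and 3 in open squares. For Slc7a11 at 4 Gy against 0 Gy the IgG value is 0.37 and the anti-PD-1 value -1.85, which becomes -0.71 without the 2 libraries.

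Markers of club, ciliated and alveolar cells and of endothelium were high in the same libraries as Gpx2, while those of simple epithelium were not. Summed over 7 club cell markers, led by Scgb1a1, the secretoglobin of airway club cells, the level was 10876 to 18905 CPM in the anti-PD-1 4 Gy libraries, 5703 to 8283 CPM in IgG 4 Gy, 1200 to 5257 CPM at 0 Gy and 808 to 5879 CPM at 8 Gy. The sum of 6 ciliated cell markers was 265 to 426 CPM in anti-PD-1 4 Gy, 111 to 182 CPM in IgG 4 Gy, 29.7 to 169 CPM at 0 Gy and 55.3 to 117 CPM at 8 Gy. Alveolar type 2 markers summed to 9085 to 11572 CPM in anti-PD-1 4 Gy, 5483 to 13465 CPM in IgG 4 Gy, 1014 to 5302 CPM at 0 Gy and 1517 to 2922 CPM at 8 Gy, and alveolar type 1 markers summed to 790 to 855, 549 to 895, 132 to 403 and 89.5 to 313 CPM. The 6 endothelial markers summed to 398 to 580 CPM in anti-PD-1 4 Gy, 316 to 393 CPM in IgG 4 Gy, 129 to 382 CPM at 0 Gy and 123 to 249 CPM at 8 Gy. Simple epithelium markers are shared by lung epithelium and adenocarcinoma cells. They summed to 2127 to 2726 CPM in anti-PD-1 4 Gy and 2690 to 2771 CPM in IgG 4 Gy. At 0 Gy they summed to 2141 to 3760 CPM and at 8 Gy to 2117 to 3756 CPM. The library with the lowest Gpx2 level, IgG 0 Gy replicate 2, also had the lowest ciliated and alveolar type 2 sums. At 4 Gy against 0 Gy 4 of 7 club cell, 6 of 7 alveolar type 2, 3 of 6 alveolar type 1, 3 of 6 ciliated cell and 4 of 6 endothelial markers rose and none fell (limma). Of all genes tested, 5.33% rose and 12.2% fell there. Leaving out the 2 libraries that stood apart, 2 of the club cell markers rose and none of the others passed. At 8 Gy against 4 Gy all markers of these 5 lists were lower, and without the 2 libraries 7, 5, 6, 5 and 4 were. With all libraries, 17.2% of all genes tested were lower in that comparison. The part of epithelial and endothelial cells in the level of Gpx2 was not tested.

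**Figure D4:**
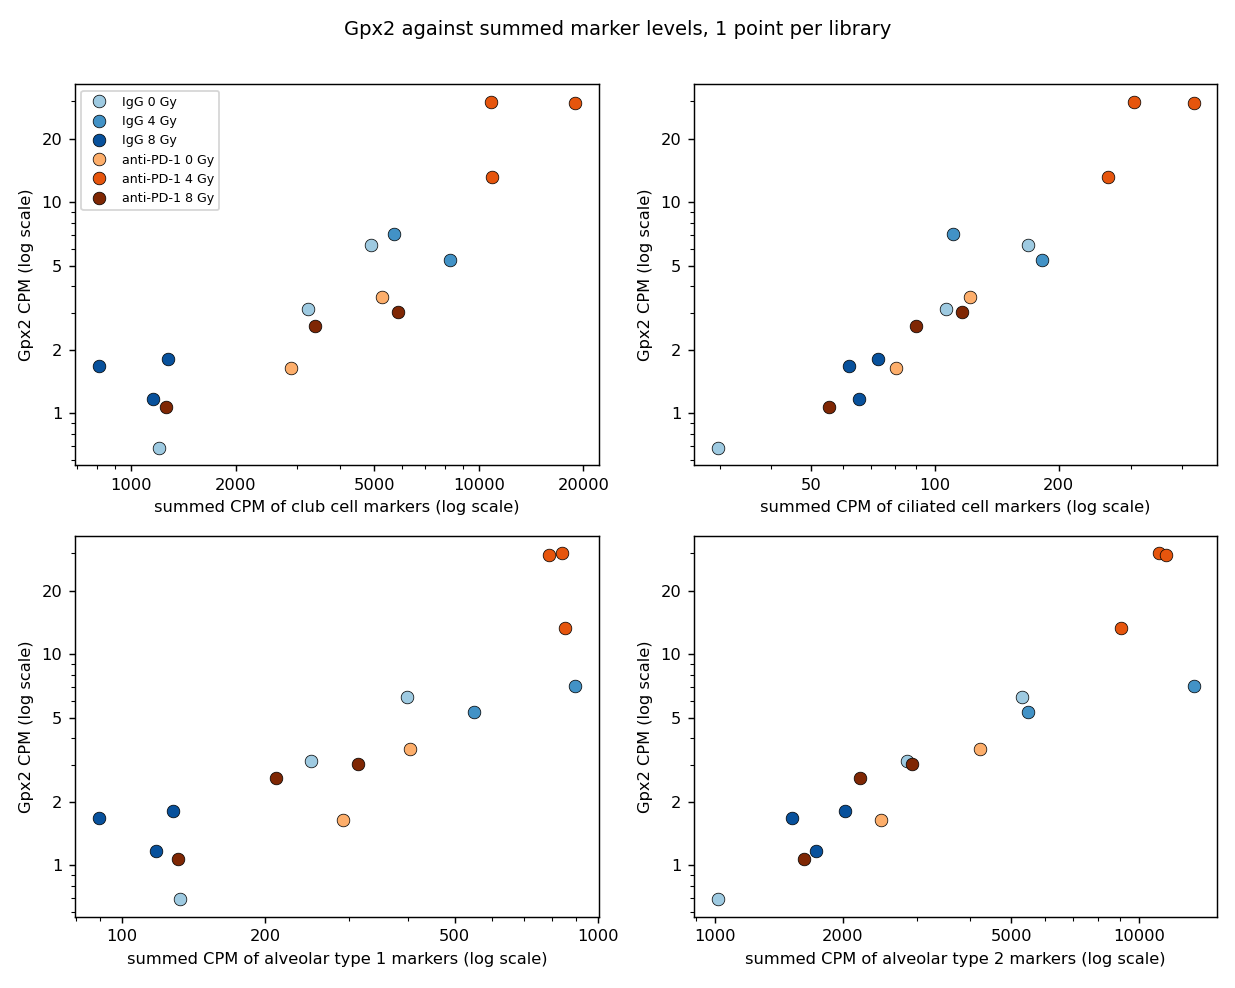
Gpx2 level in CPM (y axis, log scale) against the summed CPM of club cell, ciliated cell, alveolar type 1 and alveolar type 2 markers (x axes, log scale), with 1 point per library coloured by group. The 3 anti-PD-1 4 Gy libraries lie at the upper right of each panel, and IgG 0 Gy replicate 2, at 0.690 CPM of Gpx2, lies at the lower left or near it.

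Macrophage and red cell markers are set beside Hmox1. The 8 macrophage markers summed to 1280 to 1545 CPM in the unirradiated anti-PD-1 libraries, where Hmox1 was lowest, to 2094 to 2146 CPM in the unirradiated IgG libraries and to 2301 to 3356 CPM at 8 Gy. At 4 Gy they summed to 1706 to 2538 CPM, while Hmox1 stood at 90.8 to 143 CPM. Within the unirradiated IgG group these sums hardly differed, while Hmox1 ran from 82.0 to 257 CPM. Red cell markers summed to 1961, 4840 and 21926 CPM in that group, highest in the library with the lowest Hmox1 level, and to 2373 to 3215 CPM in the unirradiated anti-PD-1 libraries. They summed to 5294 to 30116 CPM at 4 Gy and to 6481 to 22296 CPM at 8 Gy. Alveolar macrophage markers summed to 745 to 1494 CPM at 0 Gy, 757 to 1101 CPM at 4 Gy and 727 to 1138 CPM at 8 Gy. At 8 Gy against 0 Gy 5 of 8 macrophage and 6 of 6 red cell markers rose (limma; 5 of each without the 2 libraries that stood apart). With all libraries, 4.68% of all genes tested rose in that comparison. The part of macrophages and red cells in the level of Hmox1 was not tested.

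Of 10 regulators of the pathway tested, 1 rose and 1 fell at 8 Gy against 0 Gy, near the 20.7% of all genes that passed there. None passed at 4 Gy against 0 Gy (limma, 3 at an unadjusted p under 0.05), where 17.5% of all genes did, and 3 rose and 1 fell at 8 Gy against 4 Gy, where 34.3% did. The medians of the list were 0.16, -0.07 and 0.12, beside -0.09, -0.14 and 0.06 over all genes tested. Leaving out the 2 libraries that stood apart, none passed at 8 Gy against 4 Gy. Nfe2l2 stood at 123 to 146 CPM at 0 Gy, 98.9 to 150 CPM at 4 Gy and 156 to 193 CPM at 8 Gy, and every 8 Gy library lay above every other library. It was higher at 8 Gy than at 0 Gy by 0.34 ± 0.11 (limma, adjusted p = 0.038), a call that 11 of 25 alternatives ended, 9 of them by leaving out 1 library. It was higher at 8 than at 4 Gy by 0.42 ± 0.11 (adjusted p = 0.0105), and at 0.24 (adjusted p = 0.141) without the 2 libraries that stood apart. Bach1 stood at 45.4 to 53.9 CPM at 0 Gy, 30.5 to 49.5 CPM at 4 Gy and 46.0 to 71.0 CPM at 8 Gy. It was higher at 8 than at 4 Gy by 0.53 ± 0.14 (adjusted p = 0.0115), and Cul3 likewise by 0.88 ± 0.23 (adjusted p = 0.0115). When these 2 were left out, Bach1 stood at 0.32 (adjusted p = 0.152) and Cul3 at 0.57 (adjusted p = 0.153). Mafg, a small MAF partner, was lower at 8 Gy than at 0 Gy by -0.38 ± 0.11 (adjusted p = 0.0291). Keap1 stood at 60.8 to 121 CPM and passed in neither the 3 dose comparisons over both antibodies nor the antibody comparison.

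Other textbook NRF2 targets were read from lists that, like the 9 genes, were chosen with results of these data known. Of 21 conjugation and detoxification genes tested, 4 fell and none rose at 8 Gy against 0 Gy, near the 16.1% of all genes that fell and 4.68% that rose there. At 4 Gy against 0 Gy 4 rose and 1 fell (5.33% and 12.2% of all genes), and at 8 Gy against 4 Gy 7 fell and none rose (17.2% and 17%). The list medians were -0.11, 0.06 and -0.13. Several of these genes are abundant in club cells. Cyp2a5, a cytochrome P450 of the airway and liver, stood at 22.3 to 202 CPM at 0 Gy, 36.4 to 454 CPM at 4 Gy and 7.72 to 70.3 CPM at 8 Gy. It changed by -2.29 on the log2 scale at 8 Gy against 0 Gy (limma, adjusted p = 0.00821) and by -2.72 at 8 Gy against 4 Gy (adjusted p = 0.0022). Gsta3, a glutathione transferase, fell by 2.39 at 8 against 4 Gy, and Cbr3, a carbonyl reductase, by 0.90. Ephx1, microsomal epoxide hydrolase, rose by 0.61 at 4 Gy (adjusted p = 0.0225) and fell by 0.76 between 4 and 8 Gy (adjusted p = 0.00206). When the 2 libraries that stood apart were left out, none of these 21 passed at 4 Gy against 0 Gy, 3 fell at 8 Gy against 0 Gy and 6 fell at 8 Gy against 4 Gy. The alpha-class glutathione transferases have near-identical copies that may share reads.

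NADPH is the reductant of Gsr and Txnrd1. Of 6 genes of its supply tested, Idh1, cytosolic isocitrate dehydrogenase, fell at 4 Gy by 0.84 on the log2 scale (limma, adjusted p = 0.0308), where 17.5% of all genes passed. At 8 Gy against 4 Gy, where 34.3% of all genes passed, Idh1 was higher by 0.75 (limma, adjusted p = 0.0201) and Me1 (malic enzyme) by 0.63 (adjusted p = 0.0173). G6pdx, which opens the pentose phosphate pathway, was higher there by 0.23 (limma, adjusted p = 0.0412). At 8 Gy against 0 Gy none passed, where 20.7% of all genes did, and 1 had an unadjusted p under 0.05. None of these calls held without the 2 libraries that stood apart. Of 4 thioredoxin and peroxiredoxin targets, Prdx1 was higher by 0.57 and Prdx6, an epithelial peroxiredoxin of the lung, lower by -0.51 at 8 Gy against 4 Gy. Prdx6 kept its call without the 2 libraries (adjusted p = 0.0154) and Prdx1, at 0.32 (adjusted p = 0.32), did not. At 4 Gy against 0 Gy with anti-PD-1, where 13.4% of all genes rose and 25.9% fell, Prdx1 was lower, at -0.94 (limma, adjusted p = 0.0224). Sesn2, a stress-induced sestrin named outside the naming rule, rose there by 0.68 (adjusted p = 0.0114). That comparison includes the 2 libraries that stood apart. With IgG, where 0.0057% of all genes passed, Prdx1 stood at 0.25 and Sesn2 at 0.08, and neither passed. Over both antibodies none of the 4 passed at 8 or 4 Gy against 0 Gy, where 3 (at 8 Gy) and 2 (at 4 Gy) had an unadjusted p under 0.05.

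Further glutathione and antioxidant enzymes passed in both directions. Gpx3, a secreted glutathione peroxidase, stood at 57.7 to 133 CPM at 0 Gy, 117 to 350 CPM at 4 Gy and 34.1 to 76.0 CPM at 8 Gy. It rose at 4 Gy by 1.201 ± 0.21 (limma, adjusted p = 0.00823) and fell at 8 Gy against 0 Gy, by 0.90 on the log2 scale (adjusted p = 0.00723). Sod3, extracellular superoxide dismutase, stood at 15.9 to 38.9, 62.4 to 111 and 9.72 to 37.98 CPM at the same doses, with changes of 1.43 ± 0.30 (adjusted p = 0.0136) and -0.99 ± 0.28 (adjusted p = 0.0253). The rises at 4 Gy did not pass without the 2 libraries that stood apart (adjusted p = 0.0902 for Gpx3 and 0.109 for Sod3). Glrx, glutaredoxin, was higher at 8 Gy than at 0 Gy by 0.65 ± 0.13 (adjusted p = 0.00371) and Prdx5 by 0.68 ± 0.12 (adjusted p = 0.00231). Of 12 glutathione genes, 2 rose and 2 fell at 8 Gy against 0 Gy, 2 rose at 4 Gy against 0 Gy, and 2 rose and 3 fell at 8 Gy against 4 Gy, where 20.7%, 17.5% and 34.3% of all genes passed. Leaving out the 2 libraries that stood apart, the counts of rises and falls were 1 and 3, 0 and 0, and 0 and 2. Of 12 further antioxidant enzymes 2 rose and 3 fell, 3 rose and 1 fell, and 1 rose and 2 fell in the same comparisons, and without the 2 libraries 3 and 3, 0 and 0, and 1 and 1.

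**Figure D5:**
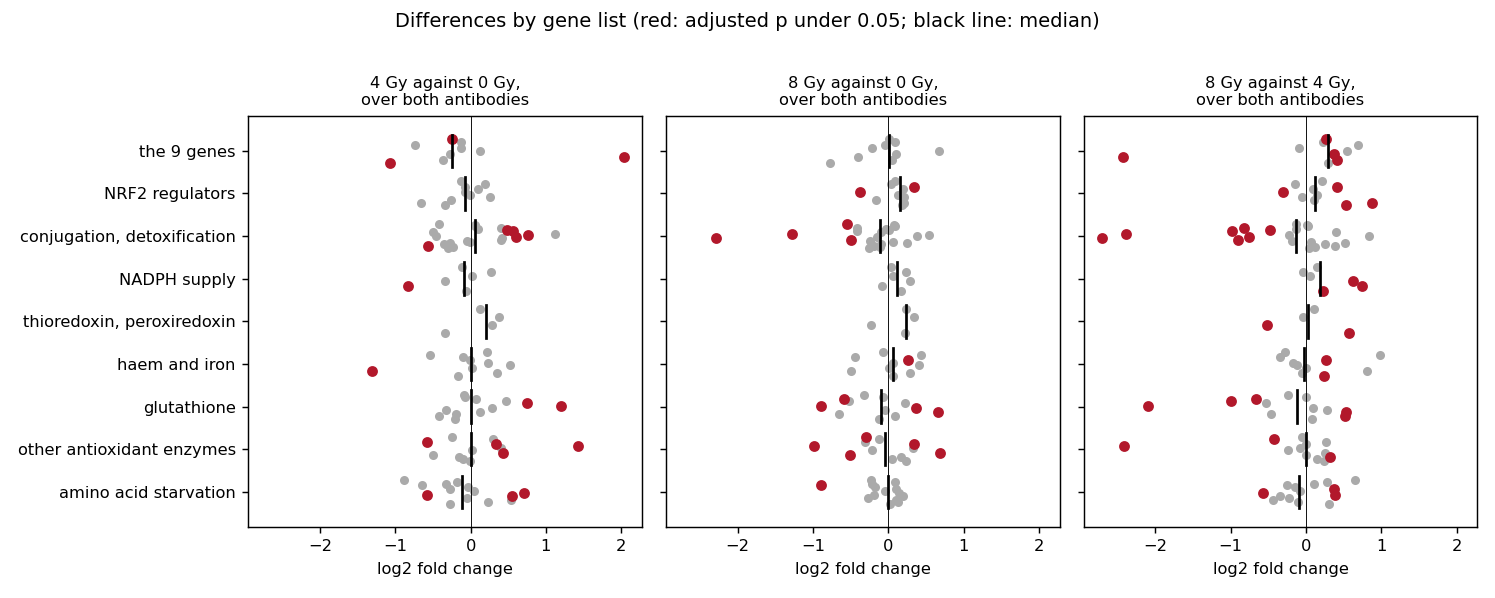
Log2 fold change (x axis, limma) of every tested gene of 9 lists (y axis) in the 3 dose comparisons over both antibodies; points are genes, red points have an adjusted p under 0.05, and the black line is the list median. Calls in both directions appear within most lists, as for the glutathione genes at 8 Gy against 0 Gy (2 higher and 2 lower).

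In haem handling, the partner branch of Hmox1, Hmox2, the constitutive haem oxygenase, was higher at 8 Gy than at 0 Gy by 0.26 ± 0.08 (limma, adjusted p = 0.0336). Cd163, the macrophage receptor for haemoglobin and haptoglobin, was lower at 4 Gy by -1.31 ± 0.34 (adjusted p = 0.0254), and stood at -0.87 (adjusted p = 0.225) without the 2 libraries that stood apart. Of 10 genes tested these were the only calls in the comparisons with 0 Gy, where 20.7% (8 Gy) and 17.5% (4 Gy) of all genes passed. Targets of ATF4, the other known activator of Slc7a11, showed 1 fall of 14 genes at 8 Gy against 0 Gy (Slc7a3, a cationic amino acid transporter). Of all genes tested, 16.1% fell there. At 4 Gy against 0 Gy 2 of the 14 rose, Nupr1 by 0.72 ± 0.18 (limma, adjusted p = 0.0219) and Ddit3 by 0.54 ± 0.15 (adjusted p = 0.0278). In the same comparison 1 fell, Ddit4, by 0.57 on the log2 scale (limma, adjusted p = 0.0124), where 5.33% of all genes rose and 12.2% fell. None of the 14 passed at 4 Gy without the 2 libraries.

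The genes whose log2 level over the 16 libraries was most like that of each of the 9 were named by Pearson's r, as a description without a test, since the points share libraries, dose and depth. Gpx2 was most like St14 (r = 0.98), a serine protease of epithelia, Rsph1 (r = 0.98), a component of the cilium, and Npw (r = 0.97). Slc7a11 was most like Antxr2, Tgfbr1 and Atp2b1 (r = 0.98 for each), Gclc like Vmp1, Tmem136 and Haus1 (r = 0.97 for each), and Gclm like Adh5, Hoxd8 and Twf1 (r = 0.95 to 0.96). Txnrd1 was most like Cast, Gosr1 and Abl2 (r = 0.94 to 0.96) and Gsr like Dlat, Sfr1 and Spred2 (r = 0.89). For Hmox1 (Mgarp, Lhfpl2 and Marcksl1), Srxn1 (Hoxb8, Txndc2 and Fblim1) and Nqo1 (Hadh, Dlk2 and Serpinf2) the highest r was 0.85, 0.84 and 0.85. Among the 9 themselves, Gpx2 had an r of -0.93 with Txnrd1, -0.84 with Slc7a11, -0.83 with Gclm and -0.80 with Gsr. Gclc and Gclm had an r of 0.81, Txnrd1 and Gsr of 0.81 and Hmox1 and Srxn1 of 0.80. For Gclc and Slc7a11 it was 0.74, and for Gclc and Hmox1 0.0019. All 16 libraries enter these values, the 2 that stood apart included.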

How the data were processed

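Bulk RNA-seq of HKP1-bearing mouse lungs was read from a table of CPM values deposited by the authors, in which the smallest value, taken here for genes with no reads, is 1e-04. STAR, Partek and the build mm10 are named per the submitters' processing notes. For their versions, the annotation, counting and strand the entry is: not given in the sources used here. CPM of the listed genes summed to 866773 to 915009 per library. Only 57.6 to 63.4% of values under 100 reads per library came out as whole reads (tolerance 0.02), which does not recover the reads, so count models were not applied.

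Tests used limma 3.58.1 (R 4.3.3, trended and robust empirical Bayes) on log2 of CPM with a pseudocount of 0.5. A gene needed 1 CPM in 2 or more libraries, which left 17546. The model had 6 group means over 16 libraries and no replicate block. P-values were adjusted by Benjamini-Hochberg over all genes tested, with a threshold of 0.05. The fold change understates low genes. Groups came from the sample titles. The labels do not say that a replicate number marks a shared batch. The procedure was tested on simulated data.

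The 9 genes are named in every comparison, as are Nfe2l2, Keap1 and Bach1. Of each other list the rule takes up to 3 genes with the lowest p in each direction among those past the threshold in a comparison over both antibodies or all doses, and for each of the 9 the 3 genes with an informative symbol and the highest Pearson's r. Sesn2 is also named, although it passed in no comparison over both antibodies or all doses. Cell type sums are named by the marker lists. The members and lists were chosen with earlier results of these data known. Gene positions and exon lengths come from GENCODE M21 on mm10, and promoters from RefSeq. Alternatives were quantile normalization, equal library medians, pseudocounts of 0.1 and 1, no filter, a replicate block, only the groups compared, an additive model, and the omission of libraries.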

Additional observations from a re-analysis of the deposited data

Results flagged for a closer look

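In 2 results the change from 0 to 4 Gy differed between the antibodies by a test of the difference itself (limma, 27 such differences for the 9 genes in 3 dose comparisons, adjusted over all genes tested). For Gclc the anti-PD-1 change minus the IgG change was -2.08 ± 0.56 on the log2 scale (adjusted p = 0.0436): every anti-PD-1 4 Gy library lay below both anti-PD-1 0 Gy libraries, while the IgG libraries overlapped. For Slc7a11 it was -2.22 ± 0.63 (adjusted p = 0.046), with the same arrangement of libraries. When anti-PD-1 4 Gy replicates 2 and 3 were left out, Gclc stood at -1.49 (adjusted p = 0.334) and Slc7a11 at -1.08 (adjusted p = 0.347). Among the 27 sets checked, each a gene at a dose over both antibodies, no library lay far enough from the rest to stand out. Groups were not checked in this way, and a check for a single far library can miss 2 that lie together.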

How the results depend on the processing

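Among the calls of the 9 genes, no direction was reversed under any of the alternatives run. Gpx2 and Gsr at 8 Gy against 4 Gy over both antibodies passed in all 25. Equal library medians moved the median of all genes by 0.11 at 8 Gy and by 0.11 at 4 Gy against 0 Gy. The share of calls that were rises went from 22.6 to 45.0% and from 30.4 to 61.5%, and for quantile normalization to 44.6 and 55.9%. For anti-PD-1 against IgG over all doses it went from 70.7 to 48.1 and 51.9%. The fall of Txnrd1 at 4 Gy did not pass under either scaling. Equal medians also gave 1 of the 9 at 8 Gy against 4 Gy with IgG. Without the filter 1 of the 9 passed for the antibody at 4 Gy and 0 for the difference between arms at 4 Gy against 0 Gy. Deviations from the group means were correlated between libraries of different groups. Same-numbered pairs had an r of -0.546 to 0.442, with 11 of 36 over 0.1. Differently numbered pairs had an r of -0.442 to 0.592, with 26 of 70 over 0.1. In a group of 2 libraries the deviations are equal and opposite, so this check cannot decide whether the numbers pair the libraries. With the replicate block 0 passed for the antibody at 4 Gy and 0 for that difference between arms. With only the groups compared in the fit, 0 passed at 4 Gy against 0 Gy over both antibodies, 2 at 8 Gy against 4 Gy with IgG, 1 for the antibody at 4 Gy, 0 for the difference between arms at 4 Gy against 0 Gy and 2 for that at 8 Gy against 4 Gy. Without anti-PD-1 4 Gy replicates 2 and 3 together, 1 passed at 8 Gy against 0 Gy and 2 at 8 Gy against 4 Gy over both antibodies. It was 0 at 4 Gy against 0 Gy over both antibodies and with anti-PD-1, 0 at 8 Gy against 4 Gy with anti-PD-1, 0 for the antibody at 4 Gy and 0 for the difference between arms at 4 Gy against 0 Gy. The cause of these moves was not tested. The share of all genes that passed under each alternative is not given, here or for the single omissions below. These counts are therefore not read as particular to the 9 genes.

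With each library left out in turn, over both antibodies 0 to 6 of the 9 passed at 4 Gy against 0 Gy, 0 to 1 at 8 Gy against 0 Gy and 3 to 5 at 8 Gy against 4 Gy. With anti-PD-1 these were 2 to 5, 0 to 1 and 3 to 7, and with IgG 0 to 0, 0 to 1 and 0 to 2. For the antibody they were 0 to 1 over all doses, 0 to 1 at 0 Gy, 0 to 4 at 4 Gy and 0 to 0 at 8 Gy. For the difference between arms they were 0 to 4 at 4 Gy against 0 Gy, 0 to 0 at 8 Gy against 0 Gy and 0 to 3 at 8 Gy against 4 Gy. Nqo1 and Gpx2 had the lowest levels in CPM, and depth limits their precision most.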
